A study of Mus musculus with 15 samples.

Results

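NRF2 is a transcription factor that KEAP1 keeps at a low level by marking it for degradation. Electrophiles and oxidants disturb KEAP1, after which NRF2 reaches the nucleus and binds antioxidant response elements near genes for glutathione synthesis, thioredoxin recycling, NADPH supply, quinone reduction and heme breakdown. Many tumour cells use the same genes to withstand oxidative stress, and plant polyphenols are widely studied as agents that act on this pathway. Here 32 genes were followed: NRF2 (Nfe2l2) and Keap1, NRF2 targets and the enzymes that remove superoxide and peroxides. They were chosen by symbol from the 40402 genes of the count table, and all 32 passed a minimum of 1 CPM (counts scaled to a library of fixed size) in at least 1 library, which kept 17594 genes. The mean level of a member over the libraries ran from 6.15 to 334 CPM.

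The cells were 4T1, a mouse triple-negative mammary carcinoma line, labelled wild type and grown in serum-supplemented medium. They were left untreated or treated, beginning 24 hours after seeding, with an extract of blackberry (BLA) or blueberry (BLU), or with gold nanoparticles made from the extract of blackberry (BLA-A) or of blueberry (BLU-A). The labels give neither a dose nor an exposure time, although the paper describes a single concentration shared by all treatments, and there were no nanoparticles without extract among the groups. Each of the 5 conditions had 3 columns of counts labelled as replicates, and the paper's general statement on replicates calls replicates independent. Its supplement, however, lists a single sequenced library per condition and read subsets drawn from it, although its alignment report speaks of 15 libraries. The columns of a condition had a chi-square per degree of freedom of 0.0951 to 0.475. That is under the 1 that independent draws of reads would give, so the columns were averaged and counted as 1 sample. Each comparison between 2 conditions is therefore 1 library against 1, with no replicate check and no p-value, and the intervals given cover counting error only.

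Each column held 25611976 to 26957141 counts, so 3 counts, the most a gene at 0 could hide, corresponded to 0.111 to 0.117 CPM. The epithelial marker list summed to 819 to 1442 CPM in the 5 libraries, with the lowest sum in BLA and the highest in BLA-A (1052 in untreated cells). Most of it came from Krt18, Krt8 and Cdh1. Epcam ran against the sum and was lowest in BLA-A, at 39.7 CPM (68.8 in untreated cells). Krt19 was highest in BLA-A, at 45.1 CPM (11.5 in untreated cells). Krt5 was at 0 in every library and Krt14 stayed under 1 CPM. Of the other lists, the fibroblast markers summed to 87.2 to 104 CPM, nearly all Pdgfra, with Lum at 0. The immune markers summed to 8.40 to 11.0 CPM, mostly Cd68, with Lyz2 at 0, and the endothelial markers to 2.13 to 4.96 CPM. The BLA-A library also stood apart in its scaling factor (0.905, against 1.01 to 1.03 in the others) and in the share of its counts taken by Gm26917 (7.84%, the highest of the 5). The part of these differences in the members' values was not tested. The labels give every column a batch date of its own, shared with no other column, so batch and condition cannot be told apart.

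The blackberry nanoparticle library stood apart from the other 3 treatments for these genes. In BLA-A, 25 of the 32 members lay above the untreated library, with a median log2 fold change of 0.45, against -0.01 over all genes. In the other treatments most members lay below it: 27 in BLU-A (median -0.12), 26 in BLU (-0.31) and 22 in BLA (-0.21). Over all genes, 49.2% lay above the untreated library in BLA-A, 50.0% in BLU-A, 49.3% in BLU and 49.0% in BLA. A side was counted at any size, so values within counting error are included, such as Gpx1 in BLU-A (-0.00028, interval -0.12 to 0.12). BLA-A was the highest of the 5 libraries for 23 members (71.9%), compared with 29.4% of all genes. Neither BLU nor BLU-A was the highest for any member, compared with 17.1% and 10.8% of all genes. All 4 comparisons share the untreated library, and in bulk RNA fewer cells of a type and less RNA per cell cannot be told apart. Fold changes were taken on the log2(CPM + 0.5) scale, and a size above 1, was set as the threshold.

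**Figure D1:**
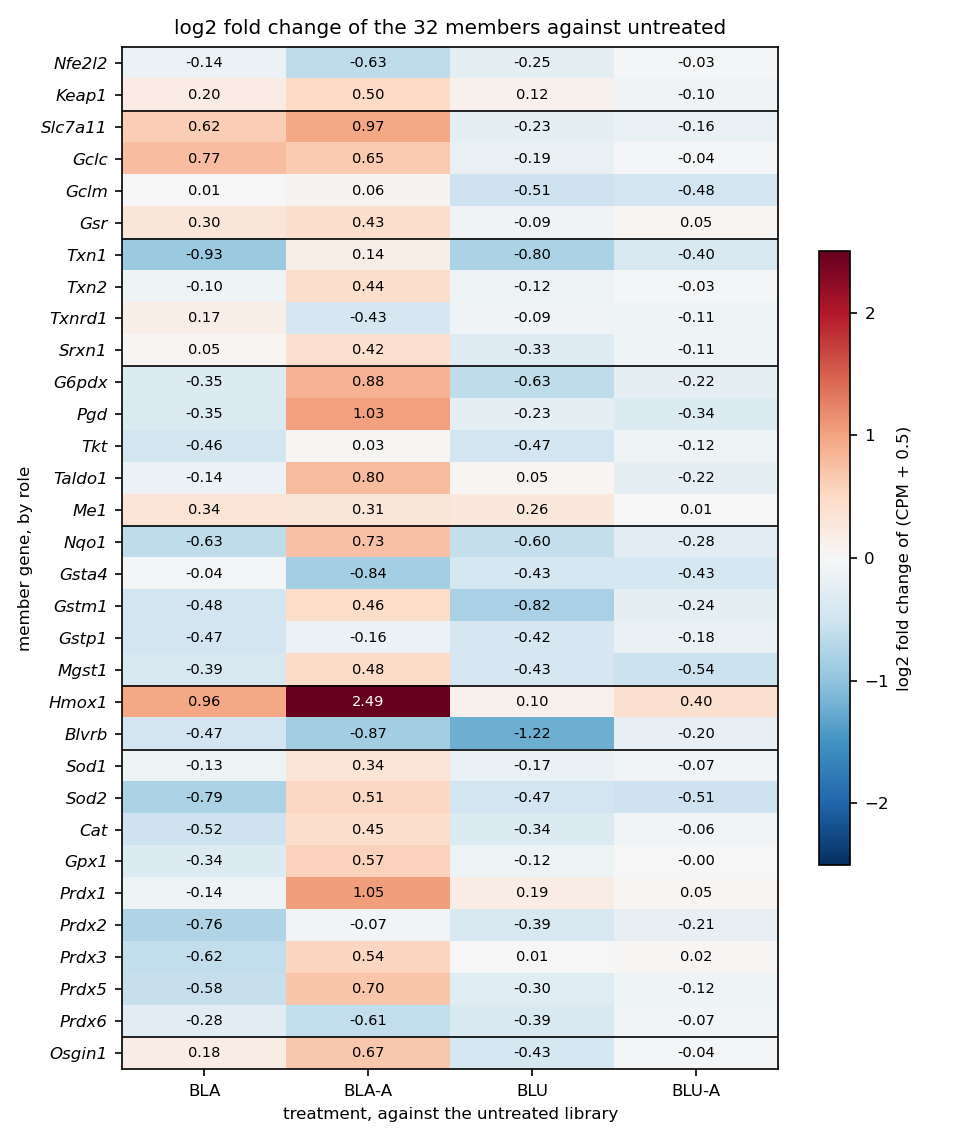
Log2 fold change of each of the 32 members (rows, in role groups divided by lines) in the 4 treatments (columns) against the untreated library, on the log2(CPM + 0.5) scale, 1 library per condition. The BLA-A column holds most of the higher values, led by Hmox1 at 2.49, and the lowest value is Blvrb in BLU at -1.22.

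Past the threshold against untreated cells, 3 members were higher in BLA-A and none was lower, where 8.55% of all genes were higher and 12.3% lower. In BLU, 0 members were higher (5.64% of all genes) and 1 was lower (4.61%). In BLA, 0 members passed in either direction (7.91% of all genes higher, 8.5% lower), and likewise 0 in BLU-A (3.39% higher, 4.48% lower). Every member has a mean of at least 5 CPM, and among such genes BLA-A had 8.51% higher and 5.31% lower, BLU had 2.62% and 0.687%, BLA had 4.51% and 2.29%, and BLU-A had 1.23% and 0.313%. Their median in BLA-A was 0.09, with 56.1% above untreated cells. The scaling bears on this: scaled by total counts alone, the median of all genes in BLA-A moved by -0.19, the median of the members was 0.26, 22 members lay above untreated cells, and the members past the threshold became 1 higher (Hmox1) and 2 lower (Gsta4 and Blvrb).

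Hmox1, the enzyme that opens the heme ring and releases iron, carbon monoxide and biliverdin, gave the largest difference among the members. Its level was 3.61 CPM in untreated cells (96 counts), 7.53 in BLA and 22.6 in BLA-A, and 3.91 in BLU and 4.93 in BLU-A. The 2 blackberry libraries were thus the highest, and BLA-A was well above all others. Against untreated cells the log2 fold change was 2.49 in BLA-A (95% counting interval 2.18 to 2.81), a 5.62-fold higher level, and 0.96 in BLA (0.62 to 1.31), just under the threshold. In BLU the value was 0.10 with an interval of -0.30 to 0.50, so no difference from untreated cells was detectable there at this depth. Blvrb, biliverdin reductase B, which also reduces flavins, went the other way. It measured 8.83 CPM in untreated cells, 6.22 in BLA and 4.60 in BLA-A, and 3.51 in BLU and 7.61 in BLU-A. It was lower in all 4 treatments and passed the threshold in BLU, at -1.22 (-1.56 to -0.88).

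The genes of glutathione supply separated the blackberry from the blueberry treatments. Slc7a11, the transporter that brings in cystine for glutathione, measured 69.0 CPM in untreated cells, 106 in BLA and 136 in BLA-A, and 58.9 in BLU and 61.8 in BLU-A. Gclc, the catalytic subunit of glutamate-cysteine ligase, measured 34.1 CPM in untreated cells, 58.4 in BLA and 53.9 in BLA-A, and 29.9 in BLU and 33.1 in BLU-A. For both genes the 2 blackberry libraries lay above the other 3, which stood close together. The log2 fold changes of Slc7a11 were 0.62 in BLA and 0.97 in BLA-A, and those of Gclc 0.77 and 0.65, all under the threshold, with the Slc7a11 interval in BLA-A reaching 1.06. Gsr, which reduces oxidized glutathione, had the same order at a smaller size (0.30 in BLA and 0.43 in BLA-A). Gclm, the modifier subunit of the ligase, measured 28.4 CPM in untreated cells, 28.5 in BLA and 29.6 in BLA-A, but 19.8 in BLU and 20.2 in BLU-A. It therefore differed between the berries by being lower in both blueberry libraries.

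In all, 9 members (28.1%) had both blackberry libraries above the other 3, compared with 9.76% of all genes: Keap1, Slc7a11, Gclc, Gclm, Gsr, Srxn1, Me1, Hmox1 and Osgin1. Members and all genes were both counted by order alone, at any size. In BLA, Gclm (0.0063, interval -0.14 to 0.15) and Srxn1 (0.05, interval -0.10 to 0.20) were within counting error of untreated cells. For 0 members were both blackberry libraries below the other 3, a pattern held by 15.5% of all genes. The pattern was looked for after the values of the first genes were seen and is given without a test.

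**Figure D2:**
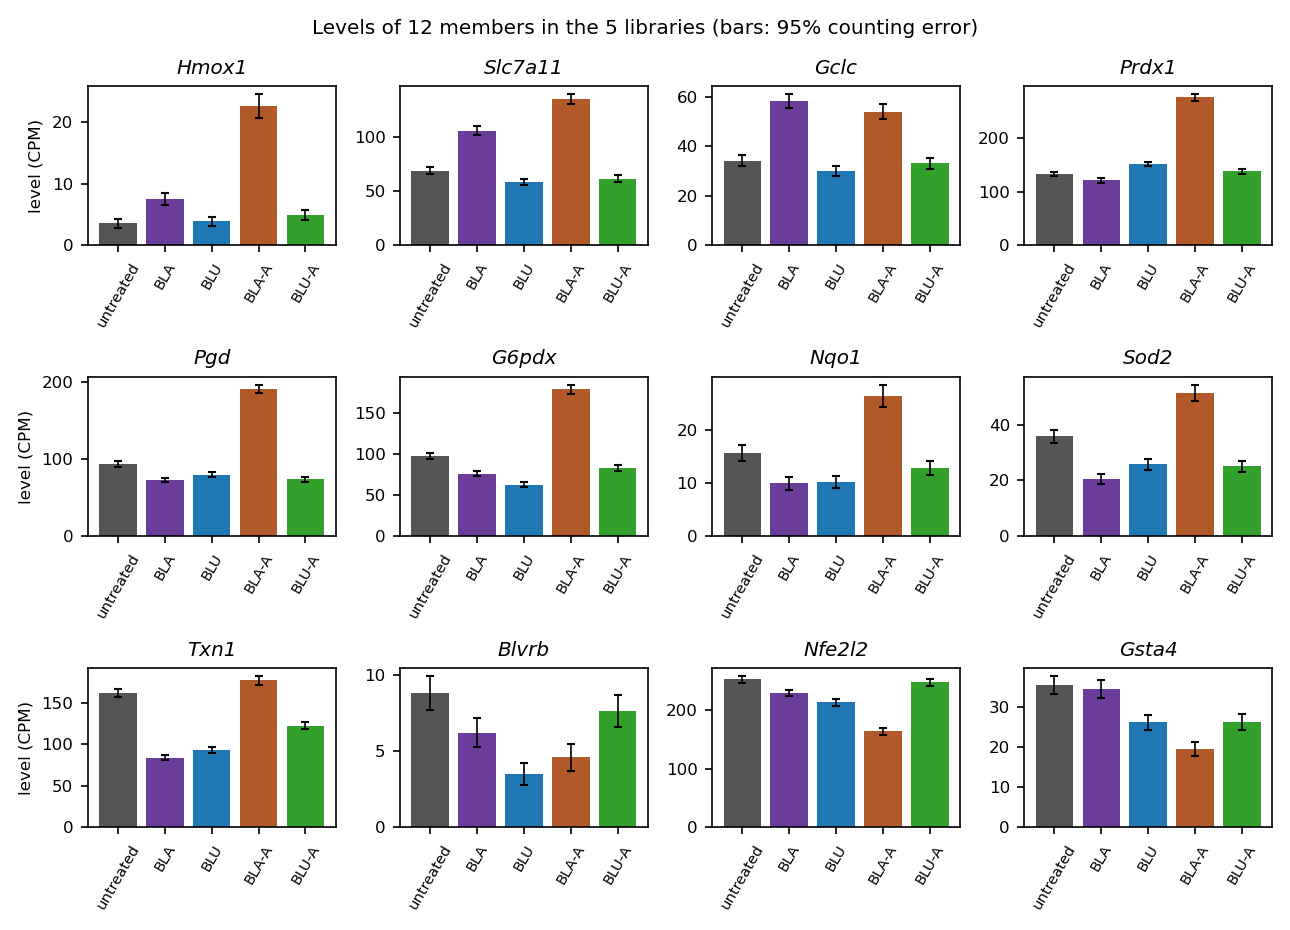
Level (CPM, linear axis from 0) of 12 members in the 5 libraries, 1 bar per library, with error bars of 95% counting error. Hmox1, Slc7a11 and Gclc are higher in BLA and BLA-A than in the other 3 libraries, Prdx1, Pgd, G6pdx, Nqo1 and Sod2 are highest in BLA-A, and Nfe2l2 and Gsta4 are lowest there.

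NADPH is the reductant for glutathione and thioredoxin. Of the members grouped under its supply, 5 of 5 were above untreated cells in BLA-A, with a median log2 fold change of 0.80. For Tkt that was within counting error (interval -0.01 to 0.07). Other genes of NADPH and carbon supply, outside the members, lay on both sides in BLA-A. H6pd (1.04) and Nadk (0.78) were among those above, and Idh1 (-0.81) and Me3 (-1.23) among those below. Pgd, an oxidative enzyme of the pentose phosphate pathway, measured 93.4 CPM in untreated cells, 73.0 in BLA and 191 in BLA-A, and 79.7 in BLU and 73.8 in BLU-A. Its log2 fold change in BLA-A was 1.03 (0.96 to 1.10), past the threshold, while the other 3 treated libraries lay below untreated cells. That call was lost under total-count scaling (0.83) and with a filter of 1 CPM in every library. G6pdx, which opens the pathway, measured 97.3 CPM in untreated cells, 76.4 in BLA and 179 in BLA-A, and 62.8 in BLU and 83.4 in BLU-A, and its fold change in BLA-A was 0.88. Of the non-oxidative enzymes, Taldo1 (transaldolase) stood at 0.80 in BLA-A and Tkt (transketolase) at 0.03. Me1, the cytosolic malic enzyme, varied least of the 5, from 71.1 CPM in untreated cells to 90.2 in BLA.

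Of the genes for superoxide and peroxide removal, 7 of 9 were above untreated cells in BLA-A (median 0.51), while 9 of 9 were below them in BLA (median -0.52). Prdx1, a cytosolic peroxiredoxin and NRF2 target, measured 133 CPM in untreated cells, 121 in BLA and 275 in BLA-A, and 151 in BLU and 138 in BLU-A. Its log2 fold change in BLA-A was 1.05 (0.99 to 1.11), a call also lost under total-count scaling (0.86) and with the filter of 1 CPM in every library. Sod2, the mitochondrial superoxide dismutase, measured 35.8 CPM in untreated cells, 20.6 in BLA and 51.4 in BLA-A, and 25.7 in BLU and 25.0 in BLU-A. Only BLA-A lay above untreated cells. Prdx5, Gpx1, Prdx3, Cat (catalase) and Sod1, the cytosolic dismutase, lay between 0.34 and 0.70 in BLA-A. The exceptions were Prdx2 at -0.07 and Prdx6 at -0.61. Prdx6, which also has phospholipase activity, measured 274 CPM in untreated cells and 180 in BLA-A, its lowest library.

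The thioredoxin genes lay on both sides of untreated cells in BLA and BLA-A. Txn1, cytosolic thioredoxin, measured 161 CPM in untreated cells, 84.2 in BLA and 178 in BLA-A, and 92.8 in BLU and 123 in BLU-A. Both plain extracts were lower, by -0.93 and -0.80 on the log2 scale, and BLA-A was 0.14 above. Txnrd1, the reductase that recharges it, was highest in BLA at 201 CPM and lowest in BLA-A at 132. Txn2, the mitochondrial thioredoxin, and Srxn1, which repairs overoxidized peroxiredoxins, stood at 0.44 and 0.42 in BLA-A.

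Among the quinone and conjugating enzymes, 5 of 5 were below untreated cells in each of BLA, BLU and BLU-A, and 3 of 5 were above them in BLA-A. Nqo1, the quinone reductase long used as a readout of NRF2, measured 15.7 CPM in untreated cells, 9.94 in BLA and 26.3 in BLA-A, and 10.2 in BLU and 12.8 in BLU-A. It stood at 0.73 in BLA-A, against -0.63 and -0.60 in the extracts. Mgst1, a membrane-bound glutathione transferase, and Gstm1 stood at 0.48 and 0.46 in BLA-A. Gsta4, which conjugates the lipid peroxidation product 4-hydroxynonenal, measured 35.5 CPM in untreated cells, 34.4 in BLA and 19.5 in BLA-A, and 26.2 in BLU and 26.1 in BLU-A. Its value of -0.84 in BLA-A ran against Nqo1. Gstp1 lay below untreated cells in every treatment, from -0.47 in BLA to -0.16 in BLA-A.

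The regulators stayed under the threshold in every treatment. Nfe2l2 mRNA measured 252 CPM in untreated cells, 229 in BLA and 163 in BLA-A, and 212 in BLU and 247 in BLU-A. Its lowest library was BLA-A, at -0.63 (-0.68 to -0.57), the library in which most of the other members were highest. Keap1 measured 31.9 CPM in untreated cells, 36.7 in BLA and 45.2 in BLA-A, and 34.6 in BLU and 29.8 in BLU-A. NRF2 is controlled mainly through its protein, which was not measured by these counts. Osgin1, an oxidative stress-induced growth inhibitor, measured 33.9 CPM in untreated cells, 38.5 in BLA and 54.3 in BLA-A, and 25.0 in BLU and 32.9 in BLU-A, and was highest in BLA-A at 0.67.

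Nanoparticles were next compared with the plain extract of the same berry, in pairs that share no library. In BLA-A against BLA, 25 of 32 members were higher (median 0.52, against -0.08 over all genes), and 9 passed the threshold upward and 0 downward, where 11.6% and 13% of all genes did (12.1% and 7.35% of the genes with a mean of at least 5 CPM, as all members have). The 9 were Hmox1 (1.53), Pgd (1.38), Nqo1 (1.36), Sod2 (1.30), Prdx5 (1.28), G6pdx (1.22), Prdx1 (1.18), Prdx3 (1.15) and Txn1 (1.07). They came from 5 of the role groups, with 4 of them in superoxide and peroxide removal. In BLU-A against BLU, 23 of 32 members were higher, at a smaller median of 0.14 (-0.02 over all genes). Over all genes, 45.9% were higher in BLA-A against BLA and 47.6% in BLU-A against BLU. Values within counting error are included, such as Prdx3 in BLU-A against BLU (0.01, interval -0.15 to 0.17). Blvrb alone passed the threshold in BLU-A against BLU, at 1.02 (0.67 to 1.37). Past the threshold there, 2.89% of all genes were higher and 3.79% lower. Among those with a mean of at least 5 CPM it was 0.539% and 0.330%. Slc7a11 (0.35 and 0.07) and Gclc (-0.11 and 0.14) differed less between nanoparticle and extract than between the berries. Slc7a11 is the longest member, at 551.1 kb. Centred on gene length class, as described below, it stood at 0.68 in BLA-A against BLA. Its value in BLA against untreated cells went from 0.62 to 0.40.

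**Figure D3:**
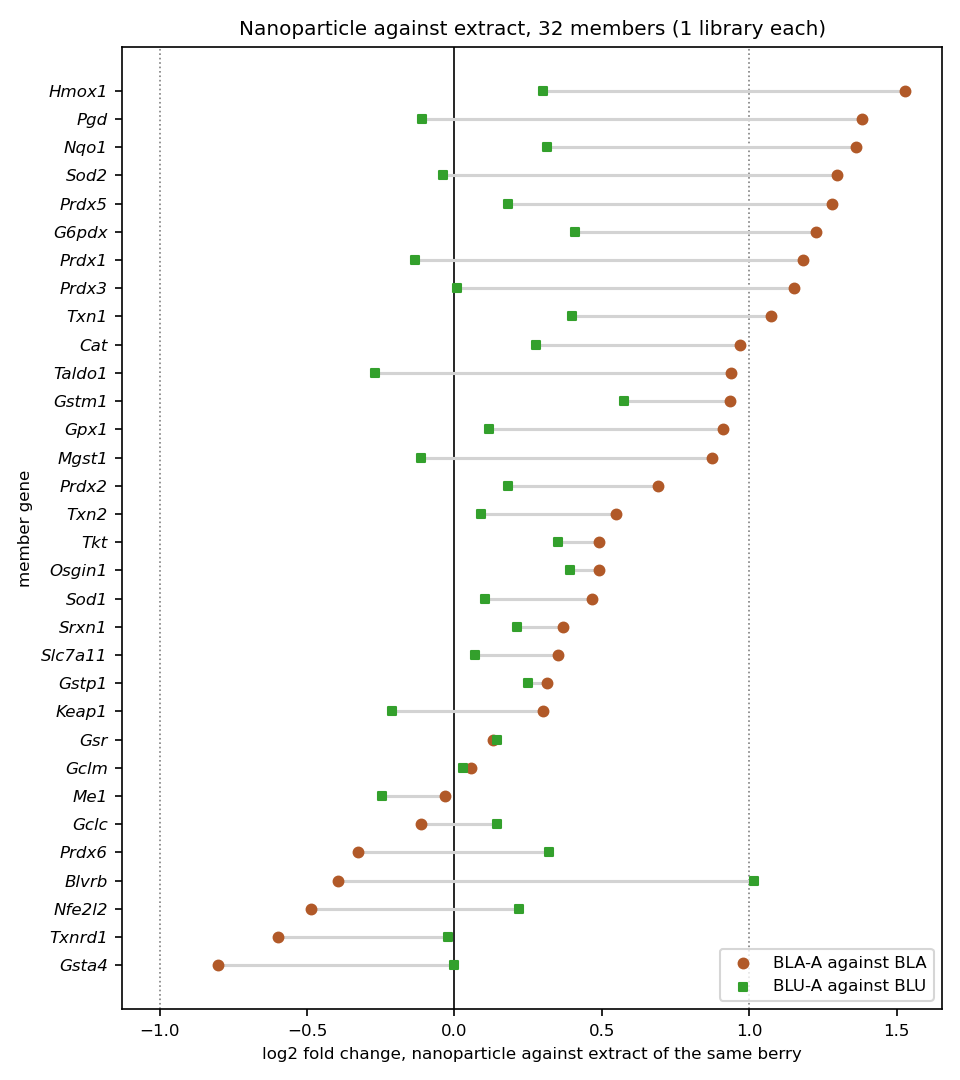
Log2 fold change of nanoparticle against extract of the same berry for the 32 members, BLA-A against BLA as circles and BLU-A against BLU as squares, 1 library per condition, with dotted lines at the threshold of 1 in size. The 9 circles beyond the upper line run from Txn1 at 1.07 to Hmox1 at 1.53, and only 1 square, Blvrb at 1.02, lies beyond it.

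The only tests with residual degrees of freedom pool different treatments. With the 4 treated libraries against the untreated one, edgeR's quasi-likelihood test with Benjamini-Hochberg adjustment over all genes called 0 members, and 0.0227% of all genes (4 genes). No member had an unadjusted p under 0.05 in edgeR or in DESeq2, which also called 0 members. For Hmox1 the edgeR log2 fold change was 1.43, higher in 4 of 4 treated libraries, with an adjusted p of 0.999. With the 2 nanoparticle libraries against the 2 extract libraries, edgeR called 0 members and 0% of all genes, with 4 members under an unadjusted 0.05 (Txn1, G6pdx, Cat and Prdx5) and 6 by DESeq2, none of which passed adjustment. The smallest edgeR adjusted p of a member was 0.70. Txn1 had a log2 fold change of 0.76 ± 0.25 (SE) in that fit and was higher in both nanoparticle libraries than in their extracts. The spread in the first test is that between the 4 treatments, and in the second that between the berries within a formulation, so a difference present in 1 treatment or 1 berry enters as noise.

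The length of a gene moved with its fold change in these libraries. Reads were counted over the whole gene, introns included. Among protein-coding genes shorter than 8 kb the median log2 fold change was -0.34 in BLA and 0.25 in BLA-A, and -0.28 in BLU and -0.08 in BLU-A. For genes of 64 kb or more it was 0.22 in BLA and -0.0039 in BLA-A, and 0.21 and 0.09 in the blueberry libraries. The median member spans 19.9 kb, and the 5 length classes from shortest to longest hold 5, 6, 15, 4 and 2 members. With each fold change centred on the median of its length class, an alternative chosen after seeing the data, the median of the members was -0.04 (BLA), 0.41 (BLA-A), -0.20 (BLU) and -0.08 (BLU-A). The members past the threshold in BLA-A were again 3 (Pgd, Hmox1 and Prdx1), Hmox1 passed in BLA at 1.30, and 5 of the 9 remained in BLA-A against BLA (G6pdx, Pgd, Nqo1, Sod2 and Prdx1). For superoxide and peroxide removal in BLA, the centred median was -0.24, with 1 of 9 above 0. The nuclear transcripts Malat1 and Neat1 were lowest in untreated cells. Malat1 measured 1616 CPM there and 2289 to 3708 in the treated libraries, and Neat1 193 CPM there and 242 to 667 in the treated libraries. The part of gene length or of nuclear RNA in the members' values was not tested.

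**Figure D4:**
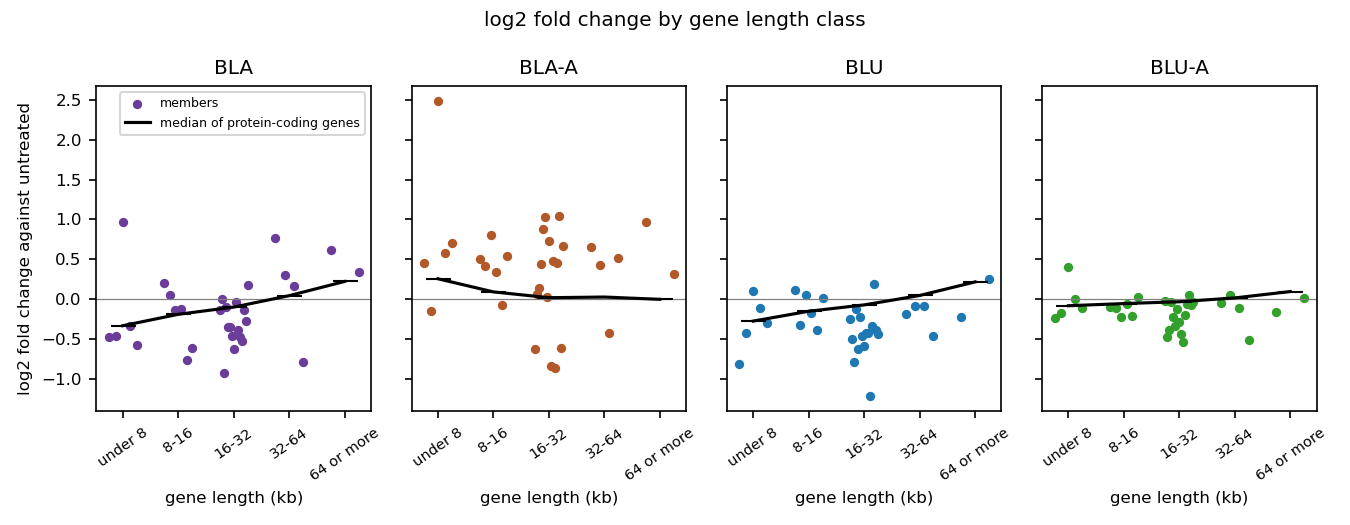
Log2 fold change against untreated cells (vertical axis) by gene length class in kb (horizontal axis) in the 4 treatments, with members as points, set side by side within a class, and the median of all protein-coding genes of each class as a black line. The line runs from -0.34 to 0.22 in BLA and from -0.28 to 0.21 in BLU, and the members of BLA-A lie mostly above it.

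The other genes of the pathway lay on both sides of untreated cells in BLA-A. A list of 140 genes of NRF2 control, glutathione, thioredoxin, NADPH, conjugation, efflux, iron and radical sources was read alongside, of which 116 passed the filter. Their median log2 fold change in BLA-A was 0.02, with 59 above and 57 below untreated cells. Past the threshold, BLA-A had 9 higher and 8 lower, BLA had 4 and 6, BLU had 2 and 2, and BLU-A had 0 and 0, to be read against the percentages of all genes given above. Bach2, a repressor that competes for antioxidant response elements, was the only one past the threshold in the same direction in 2 treatments. It measured 25.9 CPM in untreated cells, 75.6 in BLA and 25.0 in BLA-A, and 63.8 in BLU and 45.2 in BLU-A, with log2 fold changes of 1.53 in BLA and 1.28 in BLU. It was thus highest in the plain extracts and at the untreated level in BLA-A. These values of Bach2 were not centred on gene length, and the part of gene length in them was not tested.

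Some further pathway genes are named after their values were seen, because they adjoin members. Slc3a2, the heavy chain that pairs with Slc7a11, measured 61.7 CPM in untreated cells and 144 in BLA-A, a log2 fold change of 1.21. Chac1, which breaks down glutathione and is induced in the amino acid stress response, measured 11.9 CPM in untreated cells, 15.5 in BLA and 39.9 in BLA-A, and 10.7 in BLU and 15.7 in BLU-A, with 1.70 in BLA-A. Blvra, the other biliverdin reductase, stood at -1.10 in BLA-A, and the copper chaperone of Sod1, Ccs, at -1.46. Gpx4, which removes lipid peroxides, measured 36.8 CPM in untreated cells and 17.6 in BLA, at -1.04. Both subunits of the cystine transporter were therefore higher in BLA-A, whereas in BLA only Slc7a11 was (Slc3a2 at 0.02).

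NRF2 binds the core TGACNNNGC, and its presence near the annotated starts of the members was read from RefSeq promoter windows of 250 bases before to 50 after a start (GRCm38.p6). Windows were given for 27 of the 32 members, and those of Gclc, Gsr, Gsta4, Hmox1 and Prdx6 were not analysed here. The core was found on either strand in 10 of the 27 (37.0%), compared with 14.0% of all 27025 genes in the table. The 10 were Nfe2l2, Gclm, Txnrd1, Srxn1, G6pdx, Pgd, Me1, Mgst1, Sod1 and Prdx1. In 7 of them it lay wholly before the RefSeq start, and those sites are shown because they include members highest in BLA-A (G6pdx, Prdx1) and members lowest there (Nfe2l2, Txnrd1). Each is written on the gene's strand with 10 bases on either side and the core in capitals, which in all but Nfe2l2 is read as its reverse complement, GCNNNGTCA. Positions are in GRCm39, by exact match of the printed bases.
Nfe2l2: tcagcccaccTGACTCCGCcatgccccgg
Gclm: gctcccgggcGCACCGTCAactctcacga
Txnrd1: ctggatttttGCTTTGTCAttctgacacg
G6pdx: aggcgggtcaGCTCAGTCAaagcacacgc
Mgst1: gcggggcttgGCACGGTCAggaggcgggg
Sod1: gccaaggtggGCGTGGTCAgactcaggcc
Prdx1: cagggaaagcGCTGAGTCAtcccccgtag

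The Prdx1 site lies at chr4:116542653-116542681 on the plus strand, in an intron of longer Prdx1 transcripts in the GENCODE annotation, and its core begins 133 bases before the RefSeq start. The G6pdx site lies at chrX:73472525-73472553 on the minus strand, 57 bases before the start, in a region that the annotation also gives as a 5' exon of other G6pdx transcripts and that the opposite-strand gene Ikbkg spans. The Gclm site is at chr3:122039062-122039090 and the Mgst1 site at chr6:138117459-138117487, both on the plus strand. The annotation places the Gclm site outside transcripts of its strand and the Mgst1 site in a UTR exon of another Mgst1 transcript. Those of Txnrd1 (chr10:82694938-82694966) and Sod1 (chr16:90017584-90017612) are also on the plus strand, and that of Nfe2l2 (chr2:75535229-75535257) on the minus strand. The Txnrd1 site is in an intron, the Sod1 site in UTR exons of other Sod1 transcripts, and the Nfe2l2 site in an exon of a transcript that is not of Nfe2l2. In Prdx1 and Me1 the core is TGACTCAGC, which contains TGACTCA, the site of AP-1, which on either strand is in the windows of 5 of the 27 members (18.5%) and of 5.95% of all genes, so the letters do not tell the factors apart. In BLA-A the 10 members with the motif in a window had a median log2 fold change of 0.38, with a range of -0.63 to 1.05. The 17 whose windows lacked it had 0.50, with a range of -0.87 to 0.97. Sites outside the windows were not searched, so the 17 are not members shown to lack an element.

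**Figure D5:**
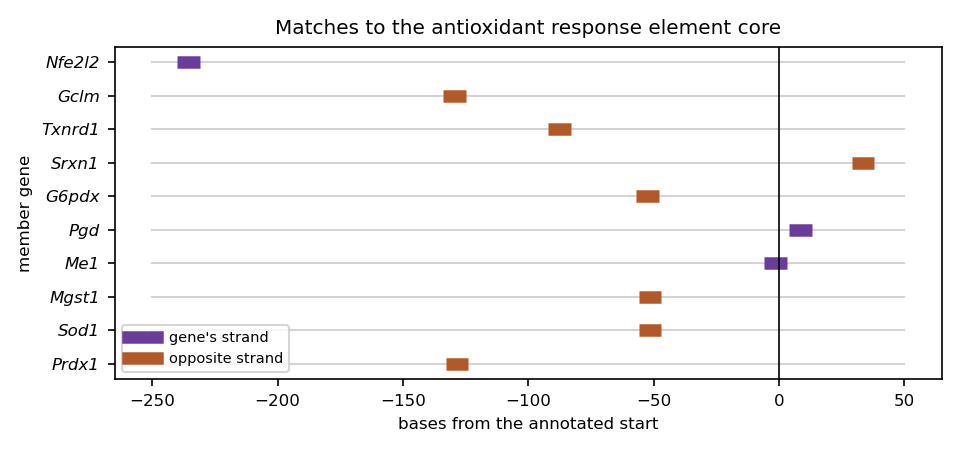
Position of the antioxidant response element core in the promoter windows of the 10 members that hold it, in bases from the annotated start (vertical line), with the gene's own strand and the opposite strand in separate colours. In 7 genes the match lies wholly before the start, in Me1 it crosses the start, and in Srxn1 and Pgd it lies after it.

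Several values rest on genes that share sequence or position with others. In the GENCODE annotation 23 of the 32 members overlap another gene, 23 of them one on the opposite strand and 8 one on the same strand. Counting was set to use strand, but whether the library kit keeps it is not given in the sources used here. G6pdx overlaps Ikbkg, Sod1 overlaps Scaf4 and Prdx5 overlaps Trmt112 on the opposite strand. Gstm1, Gstp1, Txn1, Prdx1 and Sod1 have near-identical relatives or processed pseudogenes, so their counts are uncertain to that extent. Hmox1, Pgd, Nqo1 and Blvrb overlap no other annotated gene.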

How the data were processed

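RNA of 4T1 cells in 5 conditions was depleted of ribosomal RNA and sequenced by the study, whose supplement describes 1 library per condition and 3 read subsets of it. The authors aligned the reads with STAR to GRCm39 and deposited counts per gene, not normalized, made in OmicsBox over whole genes, introns included, with strand-specific settings; DESeq2 1.36.0 is listed in the submitters' processing notes. A table of the authors' differential expression values and a table of their gene set enrichment were also deposited and were not used.

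The 3 columns of a condition were averaged to 1 library and rounded for the tests. A gene was kept if any library reached 1 CPM, and library sizes were scaled by the trimmed mean of M-values (TMM) in edgeR 4.0.16 (R 4.3.3). Log2 fold changes used CPM + 0.5. Their counting errors were computed from the counts as Poisson variables, with 95% intervals. Quasi-likelihood tests were fitted over all kept genes of the 5 libraries, with DESeq2 1.42.0 as the alternative, at an adjusted p of 0.05, and were tested on simulated counts. Gene spans were taken from GENCODE for GRCm39. Where replicates came from the same library, p-values over the columns measure only technical spread. The members and lists were chosen with earlier results of these data known. All members are named, and of the other pathway genes those past the threshold in the same direction in at least 2 treatments with a mean of at least 5 CPM, which gave Bach2. Slc3a2, Chac1, Blvra, Ccs, Gpx4, H6pd, Nadk, Idh1 and Me3 were named outside this rule, after their values were seen. 1 listed gene, Akr1b3, was matched through a RefSeq synonym to Akr1b1. Alternatives were other scalings, filters, pseudocounts, thresholds, columns left out and the columns taken as samples.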

Additional observations from a re-analysis of the deposited data

Results flagged for a closer look

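BLA and BLA-A lay on opposite sides of untreated cells for 17 members, and for the median of the members. The same count over all genes was not made, so whether 17 is unusual cannot be read from it. It also takes in values within counting error of untreated cells, such as Tkt in BLA-A (0.03, interval -0.01 to 0.07). The median and the members of the 17 that passed the threshold in either are given here. The median log2 fold change of the members was -0.21 in BLA and 0.45 in BLA-A, a difference of 0.66. Pgd stood at -0.35 in BLA and 1.03 in BLA-A, a difference of 1.38. Prdx1 stood at -0.14 in BLA and 1.05 in BLA-A, a difference of 1.18. With 1 library per condition these differences were not tested. No group held the 4 samples that a search for outlying samples needs.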

How the results depend on the processing

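Counts of members past the threshold moved with the setting as follows. In BLA the count of 0 became 1 with a pseudocount of 0.1, with centring on gene length classes and with the 15 columns as samples, and 8 at a threshold of 1.5-fold. In BLU the count of 1 became 0 with a pseudocount of 2 and 5 at 1.5-fold. In BLA-A the count of 3 became 1 with a filter of 1 CPM in every library, where Hmox1 remained, 4 with DESeq2 size factors or no filter, where Slc7a11 was added, and 14 at 1.5-fold. It stayed at 3 under total-count scaling, but as 1 higher (Hmox1) and 2 lower, with Pgd and Prdx1 lost. In BLA-A against BLA the count of 9 became 7 under total-count scaling (Txn1 and Prdx3 lost), 8 with 1 CPM in every library, 12 with DESeq2 size factors, 13 with no filter, 5 with centring and 17 at 1.5-fold. In BLU-A against BLU the count of 1 became 0 with a pseudocount of 2 and with centring, and ran from 0 (without replicate 3) to 1 when columns were left out. The looser core TGANNNNGC was found in 19 members and in 45.0% of all genes. The median of the members in BLA-A fell from 0.45 to 0.26 under total-count scaling, and that in BLA went from -0.21 to -0.04 with centring. The fold changes of single members were followed only where they passed the threshold. Of those values, 92 stayed within their counting interval and 20 moved. No median changed sign, nor did any of those fold changes. Over all 32 members, some did change side. The 25 above untreated cells in BLA-A became 22 under total-count scaling, and the 5 in BLU-A became 3 with DESeq2 size factors. The cause of these moves was not tested.

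With the 15 columns taken as separate samples, the tests called 26 members (treated against untreated) and 28 (nanoparticles against extracts), with or without the replicate number as a block. The replicate block also left 1 member past the threshold in BLA. Same-numbered columns did not deviate together (mean correlation -0.0011 over 30 pairs), so the numbers do not pair the samples, and these calls rest on read subsets of the same library. Depth gave counting errors of at most 0.20 on the log2 scale, so the missing replicates, more than depth, limit the comparisons.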
